A study of Homo sapiens with 8 samples.

Results

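IGF2BP2 peaks in coding sequence are the intervals listed as peaks of the IGF2BP2 libraries and annotated to the protein-coding part of a transcript. Being listed does not by itself mean binding or enrichment over input, which is given below. The cells were A172, a human glioma line long kept in culture. They were chosen by the region annotation that the authors wrote beside each peak, with repeated lines removed, and not by any measured value. There were 64845 of them, 33280 in the first IGF2BP2 library and 31565 in the second. They made up 3.52% of the 1843422 peaks of the series and came from lists of 362700 and 341305 IGF2BP2 peaks.

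The assay was eCLIP, in which RNA is crosslinked to a protein, trimmed with RNase I, pulled down with an antibody and sequenced beside an input taken before the pull-down. In all, 4 groups of 2 libraries each were made from A172 cells: IGF2BP2 immunoprecipitates (IP), their inputs, PTBP1 immunoprecipitates and their inputs. All cells took up 500 µM 4-thiouridine, a photoreactive nucleoside, for 3 h and received 2 exposures of 400 mJ/cm2 at 365 nm, and 2% of each lysate was set aside as input. RNA was released from membrane pieces of about 65 to 140 kDa for IGF2BP2 and about 55 to 130 kDa for PTBP1. No group lacked the antibody target, every library came from 1 cell line, and the 4 IP peak lists were used here. The labels say that the experiments were done 2 times but not whether from separate cultures, so the p-values below measure only the spread between these libraries, which may be technical.

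IGF2BP2, also called IMP2, belongs to a family of cytoplasmic proteins with RNA recognition motifs and KH domains that bind mature mRNAs and affect their stability, localization and translation. Its known sites lie mostly in 3′ UTRs, and sites in coding sequence have been described for the family as well, for example in the MYC mRNA bound by IGF2BP1. PTBP1 is a nuclear regulator of splicing that binds pyrimidine-rich RNA, mainly in introns, and serves here as a second protein measured in the same cells.

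The coding-sequence peaks were short and shallow. Their median length was 24 nt in the first IGF2BP2 library and 23 nt in the second, against 41 nt in both PTBP1 libraries. The lists give no counts, but reads could be worked out from the 2 deposited scores for 24722 and 23916 of the coding-sequence peaks, nearly all others having a −log10 p of 0. Among those peaks the median was 5 IP reads in each IGF2BP2 library, beside 5 and 6 input reads, and 25.1% and 25.7% rested on 3 IP reads. In the PTBP1 libraries the median was 29 and 22 IP reads. The total depth of each library was not in the files used. Of the IGF2BP2 coding-sequence peaks, 94.7% and 94.5% lay wholly inside the annotated coding feature, and the rest ran over its edge.

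Coding-sequence peaks took a smaller share of the IGF2BP2 lists than of the PTBP1 lists. The share was 9.18% and 9.25% in the IGF2BP2 libraries, against 13.3% and 13.5% in the PTBP1 libraries. The means were 9.21% ± 0.05 for IGF2BP2 and 13.4% ± 0.20 for PTBP1 (SD, n = 2 each), and the groups did not overlap. An exact permutation test (two-sided) over the libraries gave p = 0.333, the smallest p that 2 libraries against 2 allow. Among enriched peaks, defined in the next paragraph, the gap was wider, with 5.54% ± 0.28 in coding sequence for IGF2BP2 and 26.8% ± 0.28 for PTBP1. The thresholds are not alike for the 2 proteins. IGF2BP2 peaks of 6 to 9 IP reads could pass, but no such PTBP1 peak in coding sequence, 3′ UTRs or introns did. For PTBP1, a mean of 67.2% of coding-sequence peaks but 34.7% of intron peaks held at least 10 IP reads. The part of depth in the wider gap was not tested.

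Enrichment over input was low in coding sequence for IGF2BP2. A peak was called enriched when its log2 ratio of IP to input, put on one scale for all chromosomes, was at least 3 and its −log10 p was at least 3. Of the coding-sequence peaks, 1777 in the first IGF2BP2 library and 1829 in the second were enriched. These are 5.34% (95% Wilson interval 5.10 to 5.59) and 5.79% (5.54 to 6.06), below the 9.18% and 9.35% enriched among all peaks of the same 2 lists. The same shares were 20.9% and 20.9% in 3′ UTRs and 8.67% and 8.81% in introns of the IGF2BP2 libraries, but 4.69% and 4.13% in 5′ UTRs, below coding sequence. Intervals cover counting error over peaks only, and neither the peaks nor the reads in them need be independent.

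**Figure D1:**
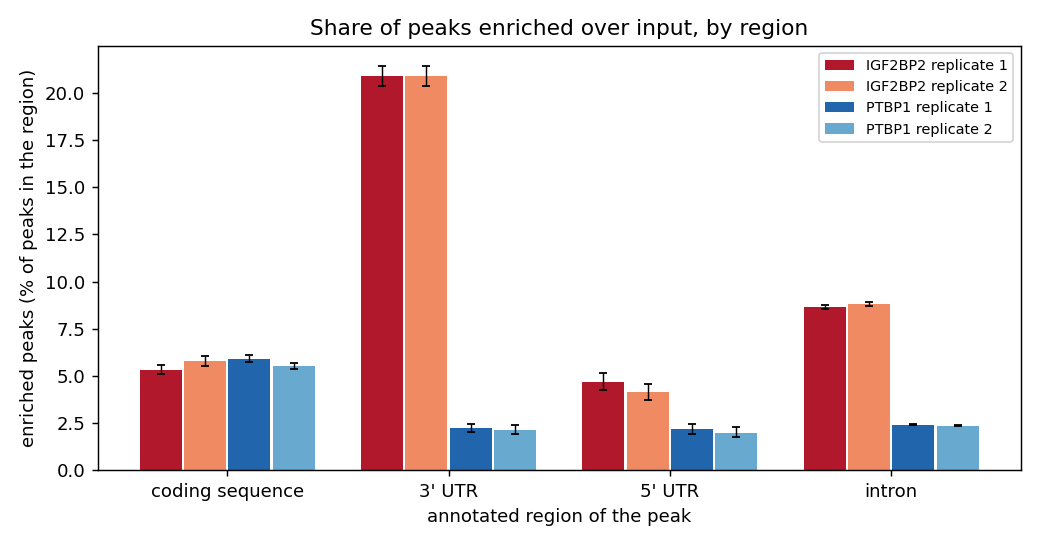
Share of peaks enriched over input (y axis, % of peaks annotated to the region) by annotated region (x axis) in the 2 IGF2BP2 and the 2 PTBP1 libraries; error bars are 95% Wilson intervals. In coding sequence the IGF2BP2 bars stand at 5.34% and 5.79% and the PTBP1 bars at 5.92% and 5.53%, whereas in 3′ UTRs IGF2BP2 stands at 20.9% in both libraries and PTBP1 at 2.22% and 2.15%. Peaks of the 2 proteins reach the thresholds at unlike numbers of reads.

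The score was likewise low in coding sequence and 5′ UTRs. The median log2 score of IGF2BP2 coding-sequence peaks was 1.15 and 1.23, against 2.74 and 2.80 for IGF2BP2 peaks in 3′ UTRs, 2.32 and 2.49 in introns, and 1.28 and 1.32 in 5′ UTRs. Input reads differed between the regions: among peaks with recovered reads, a 3′ UTR peak of IGF2BP2 held a median of 6 IP reads beside 3 input reads in each library, where a coding-sequence peak held 5 beside 5 or 6. Peaks with a deposited −log10 p of 0 made up 24.8% and 23.3% of the coding-sequence peaks but 5.70% and 5.66% of the 3′ UTR peaks. For PTBP1 the order ran the other way, with medians of 1.02 and 1.06 in coding sequence and 0.57 and 0.61 in 3′ UTRs.

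Deeper coding-sequence peaks were seen again more often, and from 6 reads on they stood below 3′ UTR peaks of the same depth. Among peaks with recovered reads in the first library, 26.1% of coding-sequence peaks with 3 IP reads overlapped a peak of the second library on the same strand, and 92.6% of those with 50 or more reads did. Over all depths, 51.7% (51.1 to 52.2) of the first library's and 54.8% (54.3 to 55.4) of the second library's coding-sequence peaks were found again. Peaks of 3 to 5 reads could hardly reach the −log10 p threshold: enriched shares there were 0.0% after rounding. From 6 reads on, 16.6% of the first library's coding-sequence peaks of 6 to 9 reads were enriched, 15.0% at 10 to 19 reads, 12.8% at 20 to 49 reads and 10.2% at 50 or more. The 3′ UTR peaks of the same library stood at 39.6%, 42.2%, 40.0% and 41.0% in those depth classes. Its intron peaks stood at 33.8%, 26.4%, 16.1% and 12.7%, nearer to coding sequence in the deeper classes.

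**Figure D2:**
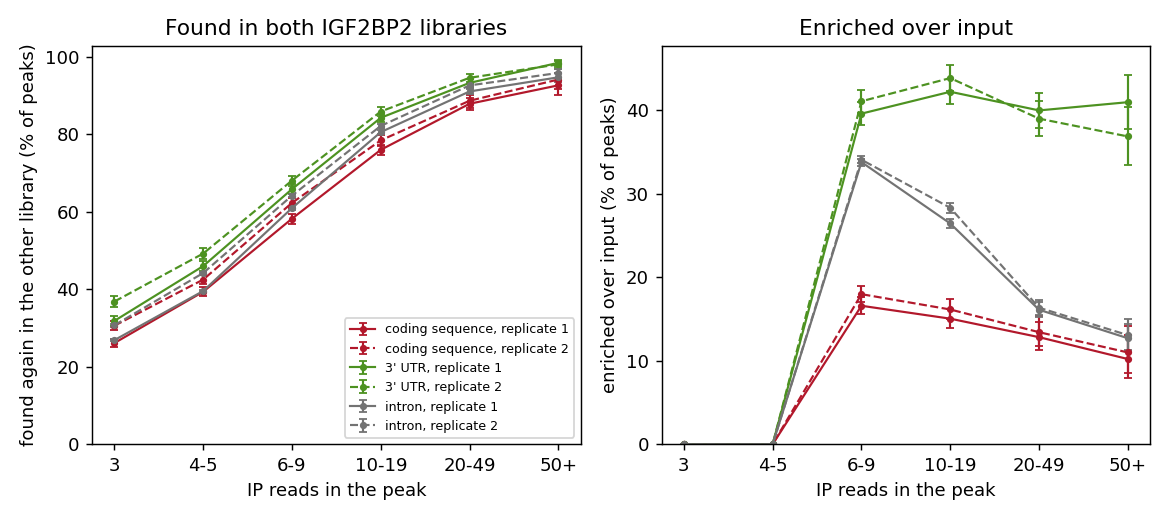
Share of IGF2BP2 peaks found again in the other library (left, y axis in %) and share enriched over input (right, y axis in %) by the IP reads in the peak (x axis), for coding sequence, 3′ UTRs and introns in both libraries, with 95% Wilson intervals. Both shares are plotted per library; the coding-sequence lines lie near the others on the left and, from 6 reads on, at 10.2% to 18% on the right, below the 3′ UTR lines at 36.9% to 43.9%.

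Coding-sequence peaks of IGF2BP2 often lay where PTBP1 had a peak too. Of the first IGF2BP2 library's coding-sequence peaks, 56.9% overlapped a peak of the first PTBP1 library, against 50.1% of its 5′ UTR peaks, 34.9% of its 3′ UTR peaks and 34.4% of its intron peaks. The overlap moved with depth: it was 37.5% for coding-sequence peaks of 3 IP reads and 86.6% for those of 50 or more. Enriched coding-sequence peaks overlapped an enriched peak of the first PTBP1 library in 7.03% (first IGF2BP2 library) and 7.93% (second) of cases, against 1.34% and 1.3% in 3′ UTRs, 2.07% and 2.02% in introns and 2.13% and 2.20% in 5′ UTRs. Of enriched coding-sequence peaks of the first IGF2BP2 library, 42.5% overlapped any peak of the first PTBP1 library, below the 56.9% of all. The first PTBP1 library had 4712 enriched peaks in coding sequence but 418 in 3′ UTRs. Counted from those, 2.70% in coding sequence and 14.8% in 3′ UTRs overlapped an enriched peak of the first IGF2BP2 library, the reverse order. The parts of peak number and transcript abundance in these overlaps were not tested.

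The comparison of coding sequence with the 3′ UTR was then made inside each gene. In 1083 genes with at least 3 scored peaks in both regions and both IGF2BP2 libraries, the median score of the coding sequence minus that of the 3′ UTR had a median of -1.37 in the first library and -1.35 in the second, in log2 units. limma called the coding sequence lower in 467 of these genes, or 43.1%, and higher in 6, or 0.554%, at a Benjamini-Hochberg adjusted p under 0.05. An unadjusted p under 0.05 was reached by 603 genes. With only peaks on the known strand of the gene, 790 genes could be tested, of which 356 were lower and 0 higher.

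In the 10 genes with the largest drop the coding-sequence score was far below that of the 3′ UTR. In PLK3, a polo-like kinase, the coding-sequence medians were -0.14 and 0.00 on the log2 scale, against 5.91 and 6.71 in its 3′ UTR. The difference was -6.38 (SE 0.45, limma adjusted p = 0.00707). TEAD1, the DNA-binding partner of YAP, had coding-sequence medians of -1.70 and -0.66, against 3.92 and 4.14 in its 3′ UTR, where 9 of 13 and 7 of 12 peaks were enriched. The cortical linkers EZR and MSN differed by -4.79 and -4.64 log2 units, and the actin-binding tropomyosin TPM4 by -4.95. STK10 (a kinase), PDE1C (a phosphodiesterase), EIF4B (an initiation factor), NONO (a nuclear RNA-binding protein) and FLCN (folliculin) completed the 10 lowest, at -5.70, -5.59, -4.91, -4.82 and -4.57. Both libraries had the coding sequence below the 3′ UTR in all 10 genes, which choosing them by this difference largely fixed.

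**Figure D3:**
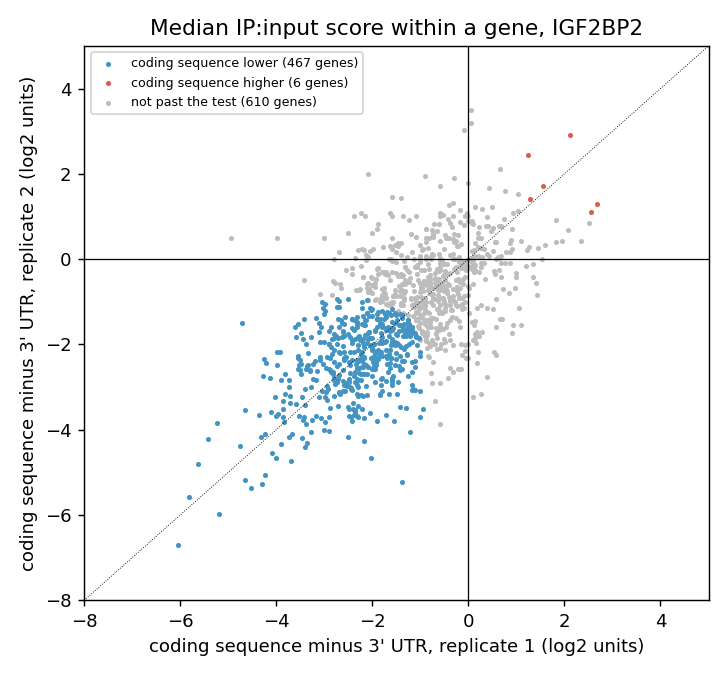
Median score of coding-sequence peaks minus that of 3′ UTR peaks in the same gene (log2 units) in IGF2BP2 replicate 1 (x axis) and replicate 2 (y axis), 1 point per gene, 1083 genes; colours mark the limma call and the dotted line marks equal values. Most points lie below 0 on both axes, with 467 genes called lower and 6 called higher in coding sequence.

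The 6 genes with the coding sequence above the 3′ UTR had smaller differences. POM121, a nuclear pore protein with near-identical relatives whose reads may be shared, had 19 coding-sequence peaks in each library with medians of 2.57 and 2.06, against -0.11 and 0.77 in the 3′ UTR. Its difference was 1.98 (SE 0.51, limma adjusted p = 0.0274), and 8 and 6 of its coding-sequence peaks were enriched. GJC1, a gap junction connexin, differed by 2.52 on 3 coding-sequence peaks per library, none of them enriched, and among peaks of 10 to 20 IP reads its difference was -2.08. C6orf47, ISLR, GAL3ST3 (a sulfotransferase) and CORO6 (a coronin) differed by 1.85, 1.83, 1.63 and 1.35.

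Set against introns of the same gene, the coding sequence was lower as well. The median difference was -1.0 in the first IGF2BP2 library (3218 genes) and -1.08 in the second (2985 genes), against 0.21 and 0.12 in the PTBP1 libraries. Against the 5′ UTR of the same gene it was -0.02 in the first IGF2BP2 library and 0.23 in the second, so over all depths the libraries did not share a direction there. In peaks of 10 to 20 IP reads the IGF2BP2 difference from introns was smaller, at -0.52 and -0.60, and that from the 5′ UTR was 0.20 and 0.21. Reads were recovered only for peaks above input, so this choice drops low scores unequally. Peaks with a −log10 p of 0 were 24.8% and 23.3% in coding sequence and 10.3% and 9.59% in introns. They were 17.7% and 16.7% in 5′ UTRs and 5.70% and 5.66% in 3′ UTRs. The part of this in the smaller difference was not tested. In those peaks the difference from the 3′ UTR was -1.0 and -1.09 in the IGF2BP2 libraries, against 0.00 and 0.09 in the PTBP1 libraries.

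Coding-sequence peaks within 2000 nt of a 3′ UTR peak were more often enriched than those farther away. Distance was taken along the genome, introns included, to the nearest 3′ UTR peak of the same gene and strand in any library. Of IGF2BP2 coding-sequence peaks within 100 nt, 7.56% and 9.30% were enriched, and of those farther off but within 500 nt 8.25% and 7.75%. Between 500 and 2000 nt the share was 6.66% and 8.12%, so it did not fall with distance in the second library up to that point. Beyond 2000 nt it was 4.43% and 4.42%. The peaks with no such 3′ UTR peak to measure to, 28.8% and 28.1% of all, stood between, at 5.55% and 6.53%. PTBP1 coding-sequence peaks showed 2.19% and 2.17% within 100 nt and 5.58% and 5.24% beyond 2000 nt. The direction was seen inside genes too: peaks within 500 nt scored 0.30 and 0.37 log2 units above more distant peaks of the same coding sequence, as a median over 193 and 181 genes, and were higher in 64.8% and 64.1% of them. In the PTBP1 libraries that median was -0.00 and -0.06. These are descriptions without a test.

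**Figure D4:**
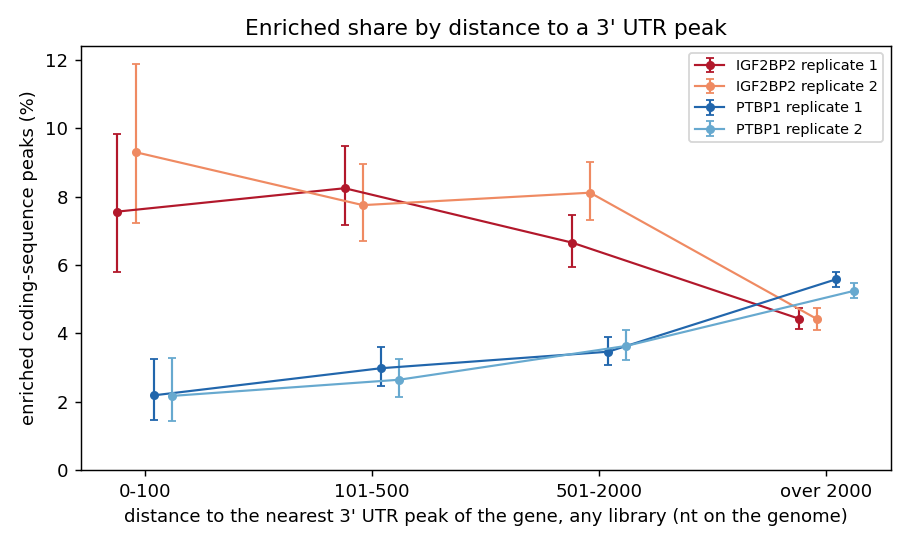
Share of coding-sequence peaks enriched over input (y axis, %) by distance to the nearest 3′ UTR peak of the same gene (x axis, nt along the genome) in the 2 IGF2BP2 and 2 PTBP1 libraries; error bars are 95% Wilson intervals. The IGF2BP2 lines are at 7.56% and 9.30% within 100 nt and at 4.43% and 4.42% beyond 2000 nt. The PTBP1 lines are at 2.19% and 2.17% within 100 nt and rise with distance. Peaks with no 3′ UTR peak to measure to are not drawn.

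Overlapping peaks of both IGF2BP2 libraries were joined into 15904 coding-sequence regions in 4966 genes. In both libraries 538 of these regions, or 3.38%, were enriched, below the 5.94% of all reproducible IGF2BP2 regions. In 3′ UTRs 2530 of 13637 regions passed, or 18.6%, and in introns 5549 of 114040, or 4.87%. The 538 regions lay in 357 genes, 265 of which had 1 and 36 of which had 3 or more. A region had a median length of 39 nt and a median of 13 IP reads beside 2 input reads in the first library, and 12 beside 3 in the second. With both thresholds at 5 in place of 3, 24 regions were left, and the mean enriched share of single peaks was 0.555%. In 226 regions a ratio rested on 1 input read in at least 1 library.

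The bases under 4 of these regions could be read from RefSeq windows around gene starts (GRCh38.p14), and they show how short the footprints are. Capitals mark the ATG in H4C8 and the motif TCTT, a PTBP1-type pyrimidine element, in LRRC8A; CATT as well as ACAC, elements described for IGF2BP proteins, and GGAC, with its longer form TGGAC, a core of the m6A mark, were in none of the 4. Only the strand of the peak was searched.
H4C8: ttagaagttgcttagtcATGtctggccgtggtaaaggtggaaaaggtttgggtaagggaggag
LRRC8A: tcgagacgctccctccggagcTCTTcca
SPNS3: ccgggcctggcagcctgtcacagg
FBXO33: gccccgaccgccgggag

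The H4C8 region, at chr6:26285454-26285516 on the minus strand, holds the ATG with which the reading frame of histone H4 opens, starting at base 18 of its 63. It held 15 IP reads beside 1 input read in the first IGF2BP2 library and 18 beside 3 in the second, for log2 scores of 5.65 and 4.49. PTBP1 peaks overlapped it with scores of 2.07 and 0.66. Histone H4 genes are near-copies of each other, so its reads may be shared among them. The LRRC8A region, at chr9:128916097-128916124 on the plus strand in the gene of a volume-regulated anion channel subunit, scored 3.22 and 3.32. SPNS3 (chr17:4486561-4486584, plus strand) scored 4.2 and 4.49, and FBXO33 (chr14:39432120-39432136, minus strand) 4.32 and 4.49 on 6 reads beside 1 in each library. For scale, the first bases of 35116 RefSeq start windows were searched, cut to the length of the H4C8 region. They hold TCTT in 22.7%, GGAC in 20.4%, CATT in 18.7%, ACAC in 16.3% and TGGAC in 4.56% of windows. The windows begin 250 nt before the gene start, so these bases lie upstream of it and are no background of coding RNA. For the length of the LRRC8A region those shares were 10.6% for TCTT, 9.45% for GGAC, 8.90% for CATT, 7.5% for ACAC and 1.97% for TGGAC.

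The strongest single regions were taken as the 10 highest by mean log2 score among regions with at least 20 IP reads in both libraries. IRF2BPL, a transcriptional regulator, had 1 region of 32 nt (chr14:77025653-77025684, minus strand) with 30 IP reads beside 1 input read in the first IGF2BP2 library and 33 beside 1 in the second. Its log2 scores were 6.65 and 6.95, and no scored PTBP1 peak overlapped it. TSC22D2 followed (chr3:150458522-150458610, plus strand) with 51 reads beside 1 and 44 beside 5, and PTBP1 scores of 1.70 and 1.58 at the same place. ADNP, a chromatin-associated homeobox protein, held 93 IP reads beside 5 input reads and 62 beside 5 at chr20:50893402-50893473 on the minus strand. There IGF2BP2 scored 5.96 and 5.54 and PTBP1 3.08 and 3.48.

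Among the others, SRRM2, a large protein of nuclear splicing speckles, scored 6.13 and 5.32 for IGF2BP2 and 4.58 and 4.17 for PTBP1 at chr16:2765088-2765134. ELL2, an elongation factor of RNA polymerase II, scored 6.55 and 4.78 and C6orf62 4.91 and 6.55 for IGF2BP2. A region of SRCAP, the ATPase of a remodelling complex that places the histone variant H2A.Z, held 25 IP reads beside 2 input reads in each IGF2BP2 library (chr16:30724230-30724262) and scored 5.38 and 5.55. The remaining 3 of the 10 lay in TUBA1A and TUBA1B, genes of alpha-tubulin, the building block of microtubules. In TUBA1B a region on the strand opposite to the gene (chr12:49128494-49128543, plus strand) held 102 IP reads beside 4 input reads and 103 beside 11. The region across from it on the gene's strand (chr12:49128508-49128555) held 85 beside 4 and 78 beside 10.

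Ranked by the number of enriched regions, the leading genes were TUBA1C with 11, MUC5B (a gel-forming mucin) and TUBA1B with 9 each, KMT2E (a chromatin regulator) with 8 and DCBLD2 (a transmembrane receptor-like protein) with 7. EP300 (a histone acetyltransferase), SRCAP and ZFHX3 (a transcription factor) had 6 each. HIVEP2 (a zinc-finger transcription factor), PPRC1 (a transcriptional coactivator), SLC35A4 (a nucleotide-sugar transporter family member) and SOX9 (a developmental transcription factor) had 5 each.

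Many of these regions came as pairs on both strands of the same place. In TUBA1C 6 regions lay on the gene's strand and 5 on the opposite one, in TUBA1B 4 and 5, in KMT2E 4 and 4, and in DCBLD2 4 and 3. In KMT2E the plus-strand region at chr7:105112613-105112660 held 42 IP reads beside 14 input reads in the first library, and so did the minus-strand region at chr7:105112627-105112674. Among the 538 regions there were 48 such overlapping pairs in 30 genes. Their IP reads lay within 1.2-fold of each other in 77.1% of pairs in the first library and 84.8% in the second, and in 46 of the 48 the minus-strand interval began later, by a median of 14 nt. Of the regions with a known gene strand, 387 were sense and 54 antisense, and 48 of those 54 overlapped a peak on the other strand. SRCAP and PPRC1, with 6 and 5 regions, had all of them on the gene's strand. The cause of the pairs was not tested, and a count of regions overstates the number of sites in the genes that hold them.

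**Figure D5:**
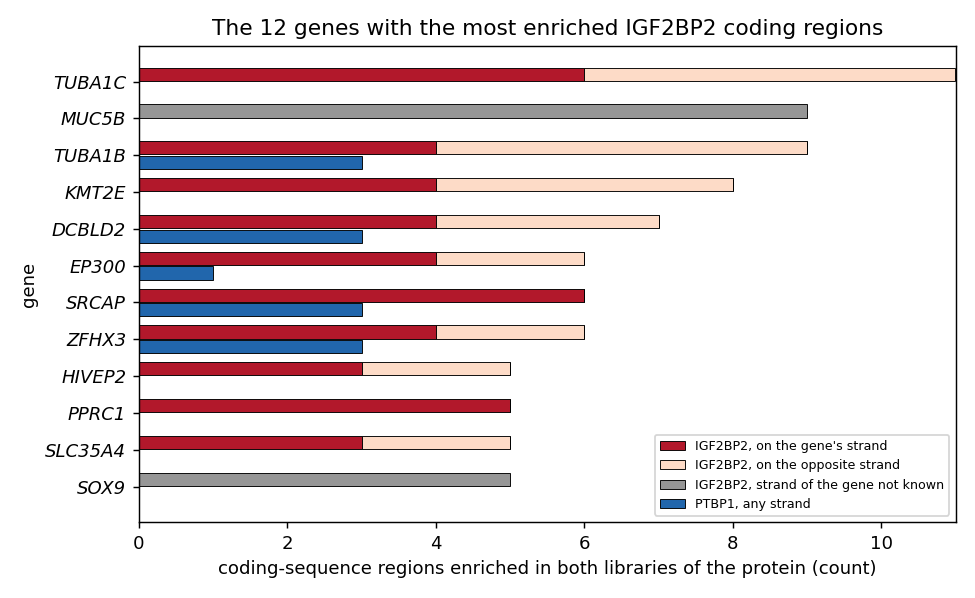
Number of coding-sequence regions enriched in both libraries of a protein (x axis) for the 12 genes with the most such IGF2BP2 regions (y axis). The upper bar of each gene is IGF2BP2, split by strand relative to the gene, and the lower bar is PTBP1; TUBA1C has 6 regions on its own strand and 5 on the opposite one, and SRCAP has 6 and 0.

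Genes with many coding-sequence peaks differed in how many of them were enriched. AHNAK2, a giant scaffold protein, had 114 and 103 IGF2BP2 coding-sequence peaks, of which 0 and 1 were enriched. PLEC (plectin), with 59 and 57 peaks, and FLNA (filamin A), with 50 and 55, had no enriched one in either library. MUC5B had 96 and 109 peaks with 19 and 25 enriched, and APC2, a relative of the APC tumour suppressor, 53 and 61 with 16 and 13 enriched. The median gene with a coding-sequence peak had 3 in each library, over 6832 and 6594 genes, and the 100 genes with most peaks held 10.8% and 11.3% of all of them.

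The genes with an enriched coding-sequence region were then set beside those enriched elsewhere. Of the 357 genes, 104 also had an enriched IGF2BP2 region in the 3′ UTR, which is 29.1% of them and 8.04% of the 1294 genes with such a 3′ UTR region that are in the coding-sequence lists. Over the 4966 genes with a reproducible coding-sequence region, 17.6% had an enriched 3′ UTR region. A PTBP1 coding-sequence region enriched in both PTBP1 libraries was present in 62 of the 357, which is 17.4% of them and 5.78% of 1072 genes, against 13.6% of the 4966. Neither overlap was tested. Of the 538 regions, 44 (8.18%) overlapped an enriched peak of the first PTBP1 library and 43 (7.99%) one of the second. Of enriched IGF2BP2 3′ UTR regions 1.86% did for either, but PTBP1 had far fewer enriched peaks there to overlap.

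The number of coding-sequence peaks per gene was compared between the proteins by limma, as log2 of peaks per 10000 listed peaks, across 23599 combinations of gene and region. Among the 6008 coding-sequence features tested, IGF2BP2 was higher in 133 and lower in 1011. Over all features, 12.3% were higher and 11.3% lower in IGF2BP2. The median difference was -0.54 log2 units for coding sequence and 0.03 over all features. It was -0.26 and 0.16 with a pseudocount of 2, -1.35 and -0.83 in peaks of at least 10 IP reads, and -1.55 and -0.43 for nucleotides covered, so coding sequence lay below all features in each. Only features with at least 10 peaks over the 4 libraries were tested. The counts depend on single libraries: without the first IGF2BP2 library 457 were higher and 2155 lower, and without the second 353 and 2002. Without the first PTBP1 library 49 were higher and 658 lower, and without the second 58 and 658. The lone library is then assumed to vary like the other group.

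Among the genes with more coding-sequence peaks for IGF2BP2, MYADM, a membrane protein named as a marker of myeloid differentiation, had 9 and 6 peaks in the IGF2BP2 libraries and 0 and 0 in the PTBP1 libraries (limma adjusted p = 0.00735). EGR3, an immediate-early transcription factor, had 6 and 4 against 0 and 0 (adjusted p = 0.00802). HELZ2, a nuclear helicase and coactivator, had 29 and 28 against 8 and 5, a difference of 2.78 log2 units (SE 0.27, adjusted p = 0.00735), yet it had no enriched region. Groups that did not overlap were a condition for naming these genes, so their separation is no further result. MYADM and EGR3 also reached the 10 peaks needed for a test through the IGF2BP2 libraries alone. Their p-values are therefore no further support. RIMBP3B, which has close copies, had 16 and 18 peaks against 4 and 2, and PEAK3, a pseudokinase, 12 and 11 against 3 and 2. The 5 others of the 10 were H4C3, DUSP7 (a phosphatase of MAP kinases), A4GALT (a glycosyltransferase), IRX3 (a homeobox transcription factor) and ZSWIM4, at 2.79 to 3.60. Of these, A4GALT, IRX3 and ZSWIM4 each lost the call in 3 of the alternatives run and DUSP7 in 1.

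The 10 genes named toward PTBP1 had many peaks against none or few, which choosing the largest differences largely fixed. Those without an IGF2BP2 peak also passed the filter of 10 peaks through PTBP1 alone, so their p-values are no further support. Not every lower gene was like this: MYH9, given below, had peaks in every library. UTP14A, a ribosome biogenesis factor, had 0 and 0 coding-sequence peaks in the IGF2BP2 libraries and 22 and 25 in the PTBP1 libraries (limma adjusted p = 0.00735). CCDC88C had 0 and 0 against 21 and 26, and NADSYN1, an NAD synthetase, 0 and 0 against 19 and 18. MYOM3, a sarcomere protein, had 2 and 0 against 42 and 33. KIAA1217, SP110, NCAM1 (a neural cell adhesion molecule), KIF5A (a kinesin), PPP1R12B and SIPA1L1 had none in either IGF2BP2 library and 13 to 18 in each PTBP1 library.

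Several gene lists were then described against the shares over all genes. An enriched region was present in 7.19% of the 4966 genes with a reproducible IGF2BP2 coding-sequence region. Of the coding-sequence features tested for density, 2.21% were higher and 16.8% lower in IGF2BP2. Over the same 4966 genes, 17.6% had an enriched IGF2BP2 3′ UTR region and 13.6% an enriched PTBP1 coding-sequence region. List counts of these last kinds are over all members. Of 20 genes known as IGF2BP targets, 10 had a reproducible coding-sequence region and 0 an enriched one, while 9 had an enriched 3′ UTR region. At 7.19%, a list with 10 such genes can hold no enriched one without standing apart. CCND1, encoding cyclin D1, had 4 and 3 coding-sequence peaks and 9 enriched regions in its 3′ UTR. MYC had 4 and 7 coding-sequence peaks in the IGF2BP2 libraries and 11 and 9 in the PTBP1 libraries (difference -0.15, limma adjusted p = 0.793), with no enriched region. Of the 11 members tested, 0 were higher and 3 lower in IGF2BP2: FSCN1 (fascin, an actin bundler) by -2.83, the insulin receptor INSR by -2.18 and the insulin-like growth factor receptor IGF1R by -1.74. The list's median was -0.38, near the -0.54 of all coding-sequence features.

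Of 15 tubulin genes, 11 had a reproducible coding-sequence region and 6 an enriched one, beside the 7.19% over all genes, and the median density difference of the 11 tested was 0.81 log2 units. TUBB2B, a beta-tubulin, was higher in IGF2BP2 with 13 and 13 peaks against 10 and 10 (1.06, SE 0.25, limma adjusted p = 0.0369) and was the only tubulin past the test. It had no enriched region, whereas TUBB4B held one with 97 IP reads beside 19 input reads and 70 beside 8. Of 13 replication-dependent histone genes, 12 had a reproducible region and 3 an enriched one, with a median of 0.63 over 10 tested. H4C3 was higher in IGF2BP2, with 7 and 7 peaks against 1 and 1 (3.02, SE 0.43, limma adjusted p = 0.0113), and H2AC18 as well, with 13 and 14 against 11 and 10 (1.04, SE 0.25, adjusted p = 0.0365). Tubulin and histone families consist of near-identical copies among which reads may be split, so the values of single members are uncertain.

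In the other lists 0 to 2 members had an enriched coding-sequence region. The 7.19% over all genes counts only genes with a reproducible region. Such a region was present in 20 actin and actin-binding, 20 collagen and matrix and 20 ribosomal protein genes. It was present in 16 chaperones, 16 translation factors and 12 glycolysis genes. On that basis translation factors had 2 of 16 and glycolysis genes 2 of 12, small counts that were not tested. Of 24 actin and actin-binding genes, 22 had a coding-sequence peak in both IGF2BP2 libraries and 0 an enriched coding-sequence region. In the 3′ UTR 15 of the 24 had an enriched region, beside 17.6% over the 4966 genes. Outside that list, and likewise named after their values were seen, the actin gene ACTA1 had 1 enriched region and the calponin gene CNN2 had 2. Among 23 listed genes tested, 0 were higher and 9 lower, among them the non-muscle myosin MYH9 with 24 and 27 peaks against 111 and 98 (-1.32, SE 0.15, limma adjusted p = 0.00812). Collagen and matrix genes had 0 of 23 with an enriched coding-sequence region, with 0 higher and 5 lower of 22 tested. Cytosolic ribosomal protein genes on the list had 0 of 33, with 0 higher and 4 lower of 23 tested, and RPS6 had 0 and 0 peaks against 8 and 7. That list is not complete: RPL12 and RPS21, ribosomal protein genes outside it that were named after their values were seen, had 1 enriched region each, on 6 to 8 IP reads beside 1 input read. Chaperones had 0 of 21, and 14 of those genes had an enriched PTBP1 coding-sequence region, beside 13.6% over the 4966 genes. Among 18 chaperones tested, 0 were higher and 1 lower, the HSP70 relative HSPA4 by -1.81. Translation factors had 2 of 21, the elongation factor EEF1A1 and the poly(A)-binding protein PABPC1, with 0 higher and 1 lower of 15 tested. Glycolysis genes had 2 of 18, the pyruvate kinase PKM and the glucose transporter SLC2A1, with 0 higher and 2 lower of 15 tested.

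Markers of a glioma or mesenchymal line were seen in part. Coding-sequence peaks of NES (nestin) numbered 15 and 20 in the IGF2BP2 libraries, of VIM (vimentin) 6 and 4 and of CD44 3 and 1, FN1 had 2 and 0, and TNC had none in any library. Of 9 markers of neurons, epithelia and blood, 8 had no IGF2BP2 coding-sequence peak, and PTPRC had 0 and 2. Fewer peaks of a gene can mean less of its RNA or less binding, and peak lists alone cannot tell these apart. A count of 0 needs more care: 14 of 186 listed and distinct genes had no coding-sequence and no 3′ UTR peak in any library. The tubulin gene TUBB6 was among them although 146 peaks carried its name in other regions, so some zeros may lie in the annotation, which was not tested.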

How the data were processed

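Peak lists of 4 eCLIP IP libraries were used; the 4 input libraries are not analysed here as such. The submitters' processing notes name HISAT2 and hg38; their peak caller and gene annotation are not given in the sources used. Per the file headers, the authors deposited for each peak a −log10 p, which stops at 400, and a column headed as a count, whose values are a log2 ratio of IP to input. That deposited log2 carries a constant per chromosome, so IP and input reads were recovered from both scores (99.6% of searched IGF2BP2 peaks) and the ratio was put on the median constant, a choice made after seeing the data. Gene strand came from RefSeq and was known for 79.7% of gene names. Overlaps need 1 nt on one strand. Tests used limma 3.58.1 in R 4.3.3 with a pseudocount of 0.5; on simulated data the density test found 82% of 4-fold and 18% of 2-fold changes. Named genes are the 12 with most enriched regions, the 10 largest called differences in each direction and the 10 strongest regions; genes with most peaks, members of the lists, markers and genes whose bases were at hand are named as well, and AHNAK2, PLEC, FLNA and APC2 after their values were seen. Genes, lists and tests were chosen with earlier results of these data known. Motifs over all peaks were not analysed here.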

Additional observations from a re-analysis of the deposited data

Results flagged for a closer look

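The difference between coding sequence and 3′ UTR inside a gene had opposite signs for the 2 proteins. The median was -1.29 and -1.26 log2 units in the IGF2BP2 libraries (1558 and 1440 genes, each library taken alone), against 0.276 and 0.263 in the PTBP1 libraries (1626 and 1536 genes). The difference from introns of the same gene was split in the same way, at -1.0 and -1.08 for IGF2BP2 against 0.208 and 0.122 for PTBP1. Both IGF2BP2 libraries moved one way and both PTBP1 libraries the other; the difference between the proteins was not tested. In peaks of 10 to 20 IP reads the intron difference was -0.52 and -0.60 for IGF2BP2 and 0.08 and -0.03 for PTBP1. That choice leaves out all peaks without recovered reads, which are those not above input and a few others.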

How the results depend on the processing

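Depth is one limit: the median coding-sequence peak of IGF2BP2 with recovered reads holds 5 IP reads, and small enrichments cannot be detected there. The enriched share (mean 5.57%) was 0.555% with thresholds of 5, 6.08% on the deposited scale and 14.5% in peaks of at least 10 IP reads. The share found again (mean 53.2%) was 81.4% with at least 10 IP reads and 71.1% among enriched peaks. The 538 enriched regions became 24 with thresholds of 5. The density counts (133 higher, 1011 lower) kept more lower than higher features in every alternative run: 317 were higher with a pseudocount of 2, 638 lower with at least 20 peaks, 11 higher and 188 lower with enriched peaks only, 353 and 1884 with at least 10 IP reads, and 377 and 3099 for nucleotides covered. Leaving out 1 library gave 49 to 457 higher and 658 to 2155 lower. Under median-of-ratios scaling the median of all features was -0.10, against 0.03, and 92.2% of called coding-sequence features were lower, against 88.4%; with the pseudocount of 2 it was 77.9%. The replicate block gave 169 higher and 1319 lower. Replicate differences of the 2 proteins correlated at 0.003 over all features. That value cannot tell whether libraries of the same number shared a culture or batch, which the labels do not say. The coding sequence minus 3′ UTR median (-1.36) was -1.47 with 5 peaks per region (294 genes lower, 2 higher), -1.11 in peaks of 10 to 20 IP reads (143 and 1) and -1.29 with means (14 higher); on the sense strand alone, chosen after seeing the data, 0 were higher. GJC1 reversed to -2.08 in peaks of 10 to 20 IP reads. Of the other alternatives for named genes, 278 kept their direction and call and 11 density calls were lost (A4GALT, IRX3 and ZSWIM4 in 3 each, DUSP7 and MYOM3 in 1 each). Where a count moved, the cause was not tested beyond fewer features or libraries entering a test.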
